A study of Mus musculus with 8 samples.

Results

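The genes described here encode the machinery that brings secretory proteins into the endoplasmic reticulum (ER), cuts off their signal peptide and attaches their first sugar chain. They were taken by name: 32 genes of the signal recognition particle (SRP), its receptor, the Sec61 channel and its partners, the TRAP complex, signal peptidase and oligosaccharyltransferase. All 32 had values, out of 17401 genes with values, and all 32 passed the expression filter that left 11747 genes for testing. The samples were pancreatic islets of C57BL/6 mice aged 12 weeks, in 4 ob/ob and 4 ob/+ libraries. The ob allele is a mutation of Lep, the leptin gene. Mice with 2 mutant copies lack working leptin and become obese, and the ob/+ controls carry 1 mutant copy. Levels are in FPKM, fragments per kilobase of transcript relative to the library total, and the files give no read counts. Whether the 4 libraries of a group come from 4 mice is not labelled, and p-values here reflect only the spread among the libraries, part of which may be technical.

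In the cell, SRP binds the signal peptide as it leaves the ribosome and docks with the SRP receptor at the ER membrane. The chain then passes through the Sec61 channel, helped by Sec62, Sec63, TRAM and TRAP, while signal peptidase removes the signal peptide and oligosaccharyltransferase transfers a preassembled sugar tree to asparagines. Beta cells send preproinsulin, their main product, through this route, and the TRAP complex is known to assist the entry of preproinsulin.

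In ob/ob islets 14 of the 32 genes (43.8%) passed the test as higher than in ob/+ (limma on log2(FPKM + 1), Benjamini-Hochberg adjusted p under 0.05 over all tested genes), where 8.21% of all tested genes did. None of the 32 passed as lower, where 10.6% of all tested genes did. At an unadjusted p under 0.05, 17 were higher and 0 lower. The signal peptidase subunit Sec11c, at 229 ± 26.6 against 86.9 ± 12.7 FPKM, and the TRAP subunit Ssr4, at 470.3 ± 36.4 against 219 ± 24.5 FPKM (mean ± SD, n = 4 each), rose the most. A further 4 genes, Dad1, Rpn2, Ssr3 and Spcs1, rose between 1.45-fold and 1.55-fold in mean FPKM. The median log2 fold change of the 32 genes was 0.26, against -0.07 over all tested genes. Between the groups 10 of the 32 (31.3%) did not overlap, each with ob/ob higher, where 9.75% of all tested genes were of that kind.

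**Figure D1:**
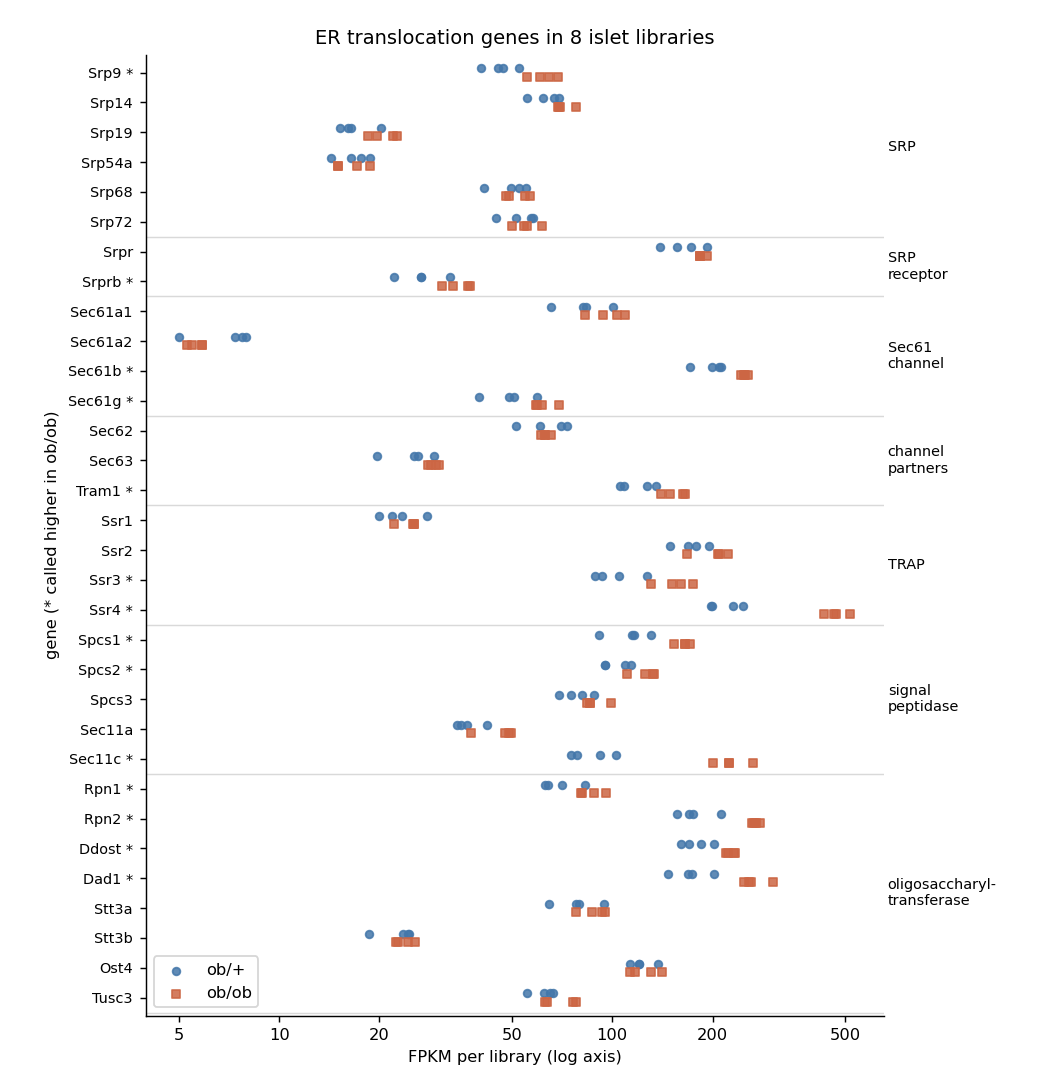
FPKM of each of the 32 genes on a log axis, 1 point per library (circles ob/+, squares ob/ob), grouped by complex; asterisks mark the 14 genes that passed the test as higher. Sec11c and Ssr4 show the widest gap between the groups, while Srp54a, Sec62 and Ost4 lie over each other.

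Library composition moved with genotype. Insulin transcripts (Ins1 and Ins2) made up 60.7% ± 3.72 of the FPKM total in ob/ob, against 48.8% ± 5.31 in ob/+ (mean ± SD, n = 4 each, two-sided exact permutation p = 0.0286, which is the lowest value possible with 4 and 4). Transcripts of 33 acinar genes, made by the enzyme-secreting cells around the islets, took 3.30% to 11.5% in ob/ob and 7.63% to 25.9% in ob/+ (exact permutation p = 0.0857), none of them at 0 in any library; 1 of the 33 (Prss1) passed the test as higher and 1 (Cela3a) as lower. Without ob/+ 4 the difference in acinar share went from -7.62 to -3.83 percentage points (exact permutation p = 0.171). Acinar cells also make the ER machinery described here, and in bulk RNA fewer cells of a type and less RNA per cell cannot be told apart. The library ob/+ 4, at 25.9% acinar, was the lowest ob/+ library for 21 of the 32 genes, and ob/+ 2, at 7.63%, was the highest for 28. Their insulin shares, 41.98% in ob/+ 4 and 54.35% in ob/+ 2, were the lowest and the highest of ob/+. Among the ob/ob libraries, ob/ob 3, at 6.42% acinar, was the lowest for 19 genes and ob/ob 1, at 11.5%, for 10. The highest was ob/ob 4, at 6.50%, for 17 genes and ob/ob 2, at 3.30%, for 10. Such counts were not made over all tested genes, so an offset of a whole library cannot be told apart from a trait of the 32 genes. When acinar genes were dropped from the library total, the median over all tested genes moved from -0.07 to -0.33 on the log2 scale, and that of the 32 genes from 0.26 to -0.04. The same step made the remaining totals of the libraries equal. As deposited, with the acinar genes, the totals were 820968 to 880570 FPKM in ob/+ and 920734 to 1004230 in ob/ob. The shift is thus not that of the acinar share alone, and the 2 parts were not separated. With that scaling 6 of the 32 were called higher, the 6 genes Sec11c, Ssr4, Dad1, Rpn2, Ssr3 and Spcs1, and 8 were called lower, where 4.02% and 60.6% of all tested genes were. The part of the acinar share in the changes was not tested beyond these alternatives.

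**Figure D2:**
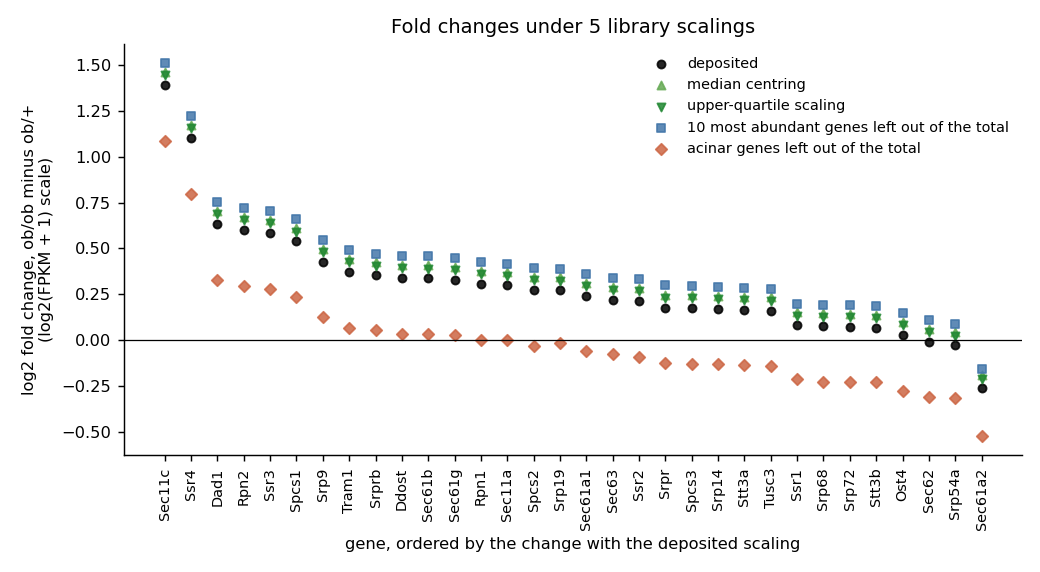
Log2 fold change (ob/ob minus ob/+, log2(FPKM + 1) scale) of the 32 genes under 5 library scalings, genes ordered by the change with the deposited scaling. The acinar scaling lies lowest, with 14 of the 32 genes above 0, and the 6 genes at the left were called higher under all 5 scalings.

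Promoter sequence was taken from RefSeq on GRCm38.p6, in windows of 250 bases before to 50 after a gene's start, and 24 of the 32 genes matched. Srp19, Srp68, Sec61a1, Tram1, Ssr2, Spcs3, Sec11c and Tusc3 did not. Motifs of the unfolded protein response, the programme that raises ER genes when folding is overloaded, were searched on both strands. The ER stress element (ERSE) was searched as CCAAT and CCACG with 9 bases between, ERSE-II as ATTGG and CCACG with 1 base between, and the unfolded protein response element (UPRE) as TGACGTGG. None of the 24 held any of these, which are in 0.119%, 0.0365% and 0.676% of all 32851 windows. The shorter letters GACGTG, which lie inside the UPRE and are the core bound by XBP1, were in 5 of the 24 (20.8%), against 11.2% of the 9100 tested genes with a window and 6.38% of all windows. Of those 5 genes only Dad1 passed the test. The letters CCAAT, which also begin the ERSE, were in 13 of the 24 (54.2%), among them 8 of the 12 called genes with a window, against 42.6% of tested genes and 37.4% of all windows. A match is a description of the letters and not a site.

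The 5 windows with GACGTG are shown because they hold the only unfolded protein response letters found, in 30 bases each, written 5′ to 3′ on the gene's strand with the match (or its reverse complement) in capitals. They lie at chr2:118479697-118479726 (Srp14, minus strand), chr9:35211173-35211202 (Srpr, plus), chr10:42761463-42761492 (Sec63, plus), chr13:37994216-37994245 (Ssr1, minus) and chr14:54254058-54254087 (Dad1, minus).
Srp14: ggattgacggaaGACGTGcaactaaagcgg
Srpr: tccgggggctgctggtgtGACGTGtcccgc
Sec63: tgctgcgcgcgcCACGTCtccctcagtgag
Ssr1: gcgcttagaggcCACGTCgacggtggcggg
Dad1: aaggctatagtaCACGTCtccagaggggga
In the first 4 the match began 12 to 25 bases before the RefSeq start, and in Dad1 146 bases before it. The 30 bases shown for Srpr and for Dad1 lie wholly within exons of the GENCODE annotation.

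Next come 100 bases upstream of 4 of the genes that rose most, with CCAAT or its reverse complement in capitals, for comparison. They are Ssr4 (chrX:73786923-73787022, plus strand), Rpn2 (chr2:157278917-157279016, plus), Ssr3 (chr3:65392624-65392723, minus) and Spcs1 (chr14:31001673-31001772, minus). Each stretch ends before the RefSeq or the GENCODE start, whichever lies further upstream. Counted from the RefSeq start, Ssr4 is shown from 100 to 1 bases before it and Spcs1 from 106 to 7. Rpn2 is shown from 181 to 82 bases before its RefSeq start and Ssr3 from 170 to 71.
Ssr4: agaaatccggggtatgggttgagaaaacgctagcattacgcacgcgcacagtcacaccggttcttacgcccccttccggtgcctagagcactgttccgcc
Rpn2: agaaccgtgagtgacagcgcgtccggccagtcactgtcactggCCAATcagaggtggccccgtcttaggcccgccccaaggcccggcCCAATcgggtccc
Ssr3: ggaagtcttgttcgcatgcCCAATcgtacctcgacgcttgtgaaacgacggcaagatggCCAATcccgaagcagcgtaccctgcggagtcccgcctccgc
Spcs1: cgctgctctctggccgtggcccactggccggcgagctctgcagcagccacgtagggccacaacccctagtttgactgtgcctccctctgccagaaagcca
Rpn2 and Ssr3 each carry 2 CCAAT boxes in the stretch shown, and Ssr4 and Spcs1 carry none in it.

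Of the 6 SRP subunits 1 rose, Srp9, which pairs with Srp14 in the part of the particle that slows the ribosome. Srp9 was at 45.3, 52.4, 40.2 and 47.0 FPKM in ob/+ 1 to 4 and at 60.8, 64.7, 55.5 and 68.8 in ob/ob 1 to 4. Every ob/ob library lay above every ob/+ library (log2 fold change 0.43 ± 0.10 SE, limma adjusted p = 0.00382). Its partner Srp14 lay between 55.3 and 69.4 FPKM in ob/+ and between 68.8 and 77.6 in ob/ob, with overlap (adjusted p = 0.230). Within a library Srp9 over Srp14 was 0.73 ± 0.10 in ob/+ and 0.88 ± 0.057 in ob/ob (mean ± SD, n = 4 each), and the groups overlapped. The assembly subunit Srp19 (adjusted p = 0.0971) and the paired large subunits Srp68 (0.657) and Srp72 (0.673) had log2 fold changes of 0.27, 0.08 and 0.07. Srp54a, the subunit that binds the signal peptide, was at 16.4 ± 1.82 FPKM in ob/ob and 16.8 ± 1.93 in ob/+ (mean ± SD, n = 4 each, adjusted p = 0.898). It has 2 near-identical copies, Srp54b and Srp54c, over 99% alike across their transcripts, so reads may have been split between them and its value is uncertain. Those copies were listed at 24.2 and 72.5 FPKM in ob/+ and 30.2 and 86.8 in ob/ob (adjusted p = 0.116 and 0.103).

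Of the SRP receptor, Srprb, the membrane anchor, passed the test and Srpr, the GTPase that docks with SRP, did not. Srprb was at 26.6, 32.7, 26.7 and 22.2 FPKM in ob/+ 1 to 4 and at 36.9, 37.5, 30.8 and 33.2 in ob/ob 1 to 4. The groups overlapped only through ob/+ 2 and ob/ob 3 (log2 fold change 0.35 ± 0.11 SE, limma adjusted p = 0.0309). The call is a weak one: it was kept in 3 of the 8 fits that left out 1 library, and ended without ob/+ 1, ob/+ 3, ob/ob 1, ob/ob 2 or ob/ob 4 (adjusted p up to 0.108). Srprb shares 888 bases of exon with the same-strand gene model Gm20425. Srpr stood at 186 ± 4.55 FPKM in ob/ob and 165 ± 23.0 in ob/+ (mean ± SD, n = 4 each, adjusted p = 0.205). Gm6733 is a near-identical copy of Srpr.

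In the Sec61 channel the small subunits Sec61b and Sec61g rose, and the pore-forming subunits did not pass the test. Sec61b was at 209, 213, 171 and 199 FPKM in ob/+ 1 to 4 and at 248, 250.3, 243 and 256 in ob/ob 1 to 4. Its groups did not overlap (log2 fold change 0.34 ± 0.09 SE, limma adjusted p = 0.00667), and the call ended without ob/+ 3 (adjusted p = 0.0562). Sec61g was at 49.1, 59.4, 39.7 and 50.7 FPKM in ob/+ 1 to 4 and at 61.5, 59.5, 59.0 and 69.1 in ob/ob 1 to 4. Its call (0.33 ± 0.11 SE, adjusted p = 0.0363) ended without ob/+ 1, ob/+ 3, ob/ob 1, ob/ob 2 or ob/ob 4 (adjusted p up to 0.208). Both have a near-identical pseudogene, Gm10320 and Gm10177, that could share their reads.

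Sec61a1, the main pore subunit, was at 83.4, 100.4, 81.4 and 65.5 FPKM in ob/+ 1 to 4 and at 104, 109, 83.0 and 93.8 in ob/ob 1 to 4. These values overlap (log2 fold change 0.24 ± 0.12 SE, adjusted p = 0.161). Sec61a2, its paralogue, was the lowest of the 32 genes, at 7.36, 7.95, 7.74 and 5.01 FPKM in ob/+ and 5.28, 5.48, 5.86 and 5.85 in ob/ob. Its fold change was the most negative of the 32 (-0.26 ± 0.13 SE, adjusted p = 0.179). The library ob/+ 4 lay below every ob/ob library and the other 3 ob/+ libraries above every one, and without ob/+ 4 Sec61a2 passed the test as lower (log2 fold change -0.39, adjusted p = 0.00173). In that fit 32.1% of all tested genes passed as lower, and the median over all tested genes was -0.15. Within a library Sec61a1 was 10.5 to 13.1 times Sec61a2 in ob/+ and 14.2 to 19.9 times in ob/ob, without overlap. Neither gene passed the test with all libraries. Sec61a2 shares 909 bases of exon with Nudt5 on the other strand, and the counting is not stated to use strand.

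Among the partners of the channel, Tram1, which lies beside it and aids the insertion of nascent chains, rose. It was at 127, 136, 109 and 106 FPKM in ob/+ 1 to 4 and at 165, 164, 139.6 and 149 in ob/ob 1 to 4, with all ob/ob libraries higher (0.37 ± 0.10 SE, limma adjusted p = 0.00732). Sec63, which recruits the chaperone BiP to the channel, was at 29.1 ± 0.952 against 25.1 ± 3.95 FPKM (adjusted p = 0.181). Sec62, which works with Sec63, was at 63.1 ± 1.81 in ob/ob and 63.9 ± 9.88 in ob/+ (mean ± SD, n = 4 each, adjusted p = 0.975).

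The 4 TRAP subunits moved unequally: Ssr4 and Ssr3 rose, and Ssr1 and Ssr2 did not pass. Ssr4 (GRCm38 chromosome X, 73787028 to 73790830, plus strand) was at 199, 248, 198 and 231 FPKM in ob/+ 1 to 4 and at 431, 470, 462 and 519 in ob/ob 1 to 4. The lowest ob/ob library was far above the highest ob/+ library, and the log2 fold change was 1.10 ± 0.09 (SE, limma adjusted p = 2.33e-09). Ssr3 (chromosome 3, 65379655 to 65392623, minus strand) was at 105, 127, 93.0 and 88.5 FPKM in ob/+ and at 161, 151, 131 and 175 in ob/ob. Its groups came close but did not overlap (0.58 ± 0.11 SE, adjusted p = 0.000604). Ssr2 lay between 149 and 195 FPKM in ob/+ and between 167 and 222 in ob/ob (adjusted p = 0.139). Ssr1, the subunit with the lowest level, was at 24.5 ± 1.62 against 23.2 ± 3.33 FPKM (means ± SD of 4 libraries each; adjusted p = 0.656).

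A ratio of 2 genes within a library does not depend on how the library was scaled. Ssr4 over Ssr2 was 1.12, 1.27, 1.33 and 1.37 in ob/+ 1 to 4 and 2.06, 2.27, 2.76 and 2.34 in ob/ob 1 to 4. Ssr4 over Ssr1 was 9.52 ± 1.38 in ob/+ and 19.3 ± 1.83 in ob/ob, and Ssr3 over Ssr1 was 4.43 ± 0.127 and 6.29 ± 0.471 (mean ± SD, n = 4 each). In these 3 ratios the groups did not overlap, whatever the library scaling. Here, and in the ratios of Sec11c and of Dad1 given further on, a gene called higher stands over a gene that was not called. A gap between the groups was thus likely from the choice of the pair, and the ratios are no separate support for the calls. Sec61a1 over Sec61a2, and Rpn2 over Rpn1 given further on, also have the gene with the higher fold change on top. How often pairs of genes separate the groups was not counted.

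**Figure D3:**
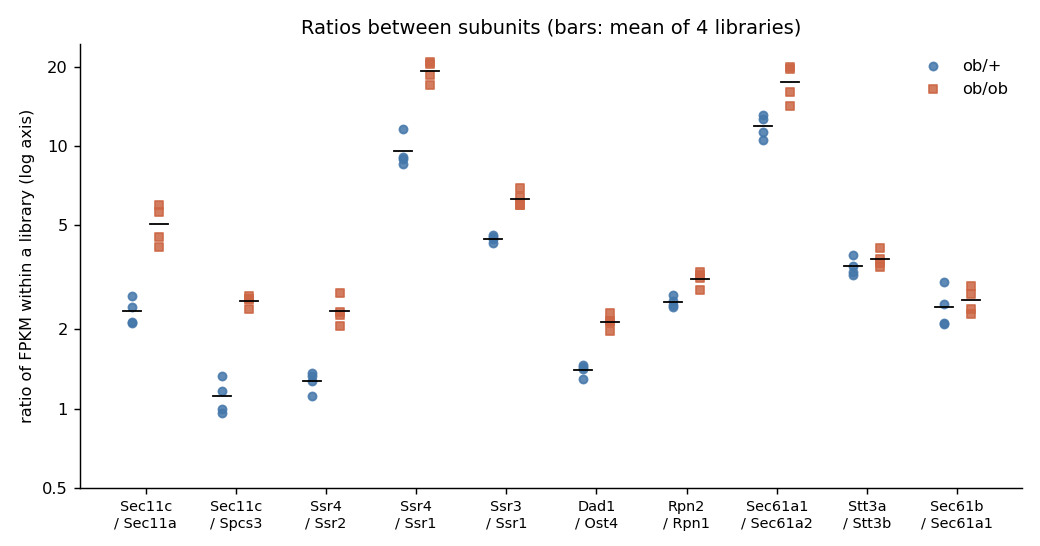
Ratio of the FPKM of pairs of subunits within each library on a log axis (circles ob/+, squares ob/ob, bars the mean of 4 libraries). The ratios with Sec11c, Ssr4, Ssr3, Dad1 or Rpn2 on top separate the genotypes, as does Sec61a1 over Sec61a2, while Stt3a over Stt3b and Sec61b over Sec61a1 overlap.

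Signal peptidase showed the largest single change. It has 2 alternative catalytic subunits, Sec11a and Sec11c, and 3 accessory subunits. Sec11c was at 78.4, 102, 74.96 and 92.0 FPKM in ob/+ 1 to 4 and at 201, 224, 225 and 265 in ob/ob 1 to 4. No ob/+ library came near the lowest ob/ob library, and the log2 fold change was 1.39 ± 0.11 (SE, limma adjusted p = 1.05e-09). Sec11a was at 36.7, 42.1, 35.3 and 34.2 FPKM in ob/+ and at 48.8, 49.7, 37.7 and 47.6 in ob/ob. It missed the threshold (0.30 ± 0.11 SE, adjusted p = 0.0529), with ob/ob 3 among the ob/+ values. Without ob/+ 2, ob/+ 4 or ob/ob 3 it passed as higher (adjusted p = 0.0258, 0.0412 and 0.0167).

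The balance between the catalytic subunits shifted with genotype. Sec11c over Sec11a was 2.14, 2.43, 2.13 and 2.69 in ob/+ 1 to 4 and 4.12, 4.52, 5.97 and 5.58 in ob/ob 1 to 4. Sec11c was thus the more abundant of the pair, per length of transcript, in all 8 libraries, and by a wider margin in each ob/ob library. Of the accessory subunits, Spcs1 (chromosome 14, 30999826 to 31001672, minus strand) was at 117, 131, 91.2 and 115 FPKM in ob/+ and at 153, 166, 165 and 172 in ob/ob. Its groups did not overlap (0.54 ± 0.10 SE, adjusted p = 0.000301), though 252 bases of its exons overlap Glt8d1 on the other strand. The accessory subunit Spcs2 was at 109, 114, 95.3 and 95.4 FPKM in ob/+ and at 126, 132, 111 and 133 in ob/ob. Spcs2-ps is a near-identical pseudogene. Spcs2 passed narrowly (0.28 ± 0.09 SE, adjusted p = 0.0429) and lost the call without ob/+ 1, ob/+ 3, ob/ob 1, ob/ob 2 or ob/ob 4 (adjusted p up to 0.153). Spcs3, the subunit that the enzyme is known to need, was at 88.7 ± 6.83 against 78.5 ± 8.03 FPKM (means ± SD of 4 libraries each; adjusted p = 0.222). Sec11c over Spcs3 was 1.11 ± 0.168 in ob/+ and 2.58 ± 0.127 in ob/ob, without overlap.

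In oligosaccharyltransferase 4 of 8 subunits rose, all of them non-catalytic. Rpn2 (chromosome 2, 157279017 to 157326319, plus strand), a large scaffold subunit, was at 175, 212, 170.1 and 156 FPKM in ob/+ 1 to 4 and at 262, 266, 278 and 269.9 in ob/ob 1 to 4. The ob/ob libraries were tightly grouped and all higher (0.60 ± 0.09 SE, limma adjusted p = 2.86e-05). Exons of Rpn2 share 144 bases with Mroh8 on the other strand. Dad1 (chromosome 14, 54235479 to 54254104, minus strand), a small subunit named as a defender against cell death, was at 169, 202, 147 and 174 FPKM in ob/+ and at 249, 257, 261 and 304 in ob/ob. Its change was 0.63 ± 0.10 (SE, adjusted p = 3.08e-05), again without overlap. Ddost was at 185, 203, 170.4 and 161 FPKM in ob/+ and at 219, 222, 233 and 232 in ob/ob, also without overlap (0.34 ± 0.09 SE, adjusted p = 0.00713). Rpn1 was at 70.6, 82.6, 62.7 and 64.0 FPKM in ob/+ and at 81.3, 80.7, 88.2 and 95.6 in ob/ob. Only ob/+ 2 reached the ob/ob values, but the call (0.31 ± 0.10 SE, adjusted p = 0.0355) ended without any 1 of ob/+ 1, ob/+ 3, ob/ob 1, ob/ob 3 or ob/ob 4 (adjusted p up to 0.141).

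The catalytic subunits did not pass. Stt3a, which acts on chains as they enter the ER, was at 79.3, 94.1, 77.9 and 64.8 FPKM in ob/+ 1 to 4 and at 87.2, 95.3, 77.8 and 93.0 in ob/ob 1 to 4. Stt3b, which acts on sites that were missed, was at 24.5, 24.4, 23.5 and 18.6 FPKM in ob/+ and at 24.4, 25.6, 22.5 and 22.8 in ob/ob. For both the groups overlapped (adjusted p = 0.299 and 0.707). Their ratio overlapped between the genotypes: Stt3a over Stt3b was 3.47 ± 0.274 in ob/+ and 3.71 ± 0.271 in ob/ob (mean ± SD, n = 4 each). Ost4, a small subunit that shares 651 bases of exon with Agbl5 on the other strand, was at 125 ± 13.0 against 123 ± 10.3 FPKM (adjusted p = 0.863), and Tusc3, an oxidoreductase subunit of the Stt3b form, at 70.1 ± 7.92 against 62.4 ± 5.04 (mean ± SD, n = 4 each, adjusted p = 0.282). Dad1 over Ost4 was 1.41 ± 0.0739 in ob/+ and 2.14 ± 0.136 in ob/ob, and Rpn2 over Rpn1 was 2.55 ± 0.121 and 3.13 ± 0.211, with no overlap in either ratio.

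**Figure D4:**
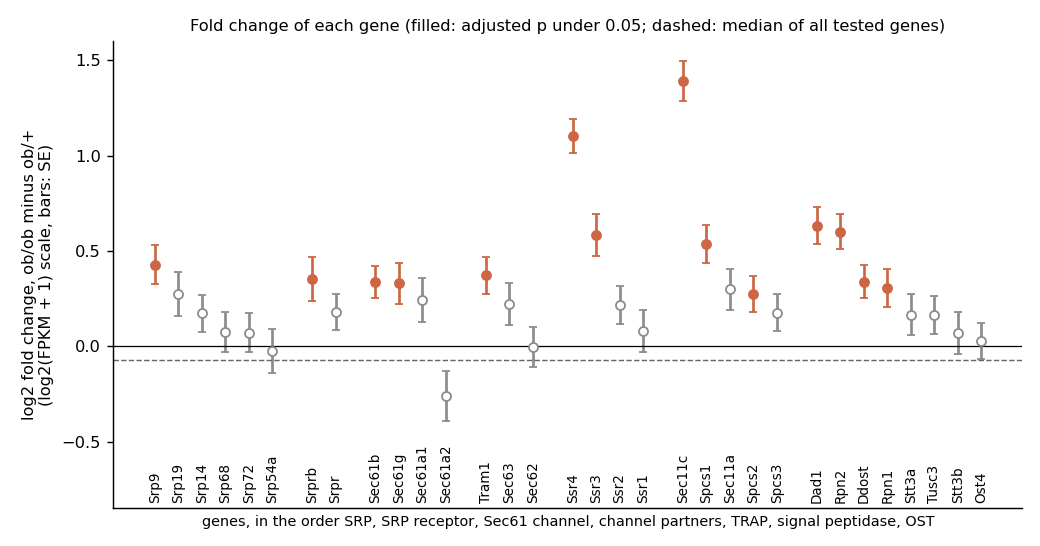
Log2 fold change of each gene with its standard error, grouped by complex; filled points passed the test and the dashed line is the median of all tested genes (-0.07). Sec11c (1.39) and Ssr4 (1.10) stand above the rest, and within each complex called and uncalled subunits lie side by side.

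Summed over each complex, signal peptidase went from 419 ± 43.8 FPKM in ob/+ to 653 ± 46.8 in ob/ob and TRAP from 518 ± 56.7 to 851 ± 67.2 (mean ± SD, n = 4 each), 1.56-fold and 1.64-fold. Sec11c and Ssr4 make up most of those differences. Oligosaccharyltransferase summed to 1.30-fold, the Sec61 channel to 1.23-fold and SRP to 1.13-fold. The 32 genes together took 0.296% to 0.373% of summed FPKM in ob/+ and 0.383% to 0.411% in ob/ob. As a share of FPKM outside the acinar genes the range was 0.365% to 0.404% in ob/+ and 0.396% to 0.443% in ob/ob, so that the groups overlapped. As a share of FPKM outside both the acinar and the insulin genes it was 0.820% to 0.982% in ob/+ and 1.13% to 1.28% in ob/ob, without overlap.

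Of the 14 calls, 6 (Sec11c, Ssr4, Ssr3, Spcs1, Rpn2 and Dad1) were kept under each of the 19 alternatives run and 9 in each of the 8 fits that left out 1 library. The further 3 in the second count were Srp9, Tram1 and Ddost. Once acinar genes were dropped from the library total these 3 had log2 fold changes of 0.13, 0.07 and 0.03 and did not pass (adjusted p = 0.219, 0.495 and 0.727). The 8 genes called lower with that scaling were Sec61a2, Srp54a, Sec62, Ost4, Srp72, Stt3b, Srp68 and Ssr1, at log2 fold changes of -0.52 to -0.21.

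The length of the transcript moved with the result. Among all tested genes with a longest coding transcript of up to 1000 bases 20.4% were called higher, against 10.6% over 1000 and up to 2000 bases, 8.05% over 2000 and up to 4000 and 4.96% above 4000. Of the 32 genes, 3 of 5, 3 of 7, 8 of 15 and 0 of 5 were called higher in these classes. Sec11c, Ssr4 and Sec61b are in the shortest class, and Rpn2, Ssr3 and Dad1 in the third. The part of length in the result was not tested.

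Other genes of the same route were taken from lists of 73 tested genes, of which 18 passed as higher and 1 as lower (26 and 4 at an unadjusted p under 0.05), beside 8.21% higher and 10.6% lower over all tested genes. Once acinar genes were dropped from the library total the counts were 6 higher and 30 lower, beside 4.02% and 60.6% over all tested genes. Of 13 other translocation and oligosaccharyltransferase subunits 3 were called higher. Hm13 was also chosen for this list but stands in the data under the symbol H13, so the counts leave it out. H13 had a log2 fold change of 0.70 ± 0.10 SE (limma adjusted p = 1.74e-05) and was not followed through the alternatives. Krtcap2, a subunit of the Stt3a form of oligosaccharyltransferase, was at 206 ± 13.4 against 122 ± 14.6 FPKM (means ± SD of 4 libraries each; change on the log2 scale 0.76 ± 0.09 SE, limma adjusted p = 1.62e-06). Ostc, which belongs to the same form (0.36 ± 0.11 SE), and Tmem258, a further subunit (0.35 ± 0.10 SE), rose too, and stood at 0.06 and 0.05, not called, once acinar genes were dropped from the library total. The call on Ostc was lost in 11 of 19 alternatives and that on Tmem258 in 3. Magt1, the counterpart of Tusc3, was at 55.04 ± 5.002 against 46.1 ± 7.96 FPKM (adjusted p = 0.107).

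Of 9 chaperones that receive the chain on the inner side of the ER 4 rose. They were the BiP co-chaperones Dnajc3 (0.80 ± 0.11 SE, limma adjusted p = 4.34e-06) and Dnajc1 (0.37 ± 0.12 SE), Sil1, which exchanges the nucleotide of BiP (0.60 ± 0.09 SE), and Sdf2l1, a partner of ER co-chaperones (0.74 ± 0.13 SE). The call on Dnajc1 was lost in 8 of 19 alternatives, among them the fits without ob/+ 1, ob/ob 2, ob/ob 3 or ob/ob 4 (adjusted p up to 0.454), and the other 3 calls in none. Hspa5, which encodes BiP, was at 429.7 ± 49.45 against 369 ± 59.4 FPKM and did not pass (adjusted p = 0.162).

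Among 22 tested genes that build the sugar tree on dolichol 6 rose. Dpm3, a subunit of the enzyme that makes dolichol-phosphate mannose, went from 54.3 ± 3.85 to 89.9 ± 3.52 FPKM (means ± SD of 4 libraries each; 0.72 ± 0.09 SE, limma adjusted p = 2.18e-06). Alg5, which makes dolichol-phosphate glucose (0.46 ± 0.11 SE), and Mpdu1, needed for the use of both sugar donors (0.43 ± 0.11 SE), rose as well. The calls on Alg5 and Mpdu1 were each lost in 1 of 19 alternatives (limma adjusted p up to 0.109 and 0.225), and that on Dpm3 in none. Of 8 genes that trim or read the attached sugar 4 rose: Prkcsh, a subunit of glucosidase II (0.63 ± 0.11 SE), the cargo lectin Lman1 (0.42 ± 0.11 SE), the folding sensor Uggt1 (0.34 ± 0.12 SE) and Mogs, glucosidase I (0.35 ± 0.12 SE). The calls on Uggt1 and Mogs were each lost in 11 of 19 alternatives (adjusted p up to 0.677 and 0.628), that on Lman1 in 3 and that on Prkcsh in none. The lectin chaperones Canx and Calr had log2 fold changes of -0.03 and 0.02.

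Routes that serve other membrane proteins were counted beside these. Of 6 tested genes of the pathway that inserts tail-anchored proteins 1 passed, as lower: Wrb, a subunit of its receptor in the ER membrane, at 3.18 ± 0.120 against 4.49 ± 0.973 FPKM (means ± SD of 4 libraries each; change on the log2 scale -0.38 ± 0.13 SE, limma adjusted p = 0.0487). The call on Wrb was lost in 11 of 18 alternatives. All 6 had a negative fold change with the deposited scaling, with 2 of them positive when the 10 most abundant genes were left out of the scaling and 1 under median centring or upper-quartile scaling. Of 15 genes of the ER membrane protein complex and of the multipass translocon 1 rose, Emc7 (0.41 ± 0.09 SE, adjusted p = 0.00194), and the median of these 15 was -0.02. The call on Emc7 was lost in 1 of 19 alternatives (limma adjusted p up to 0.237). Whether these lists differ from the 32 genes was not tested.

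**Figure D5:**
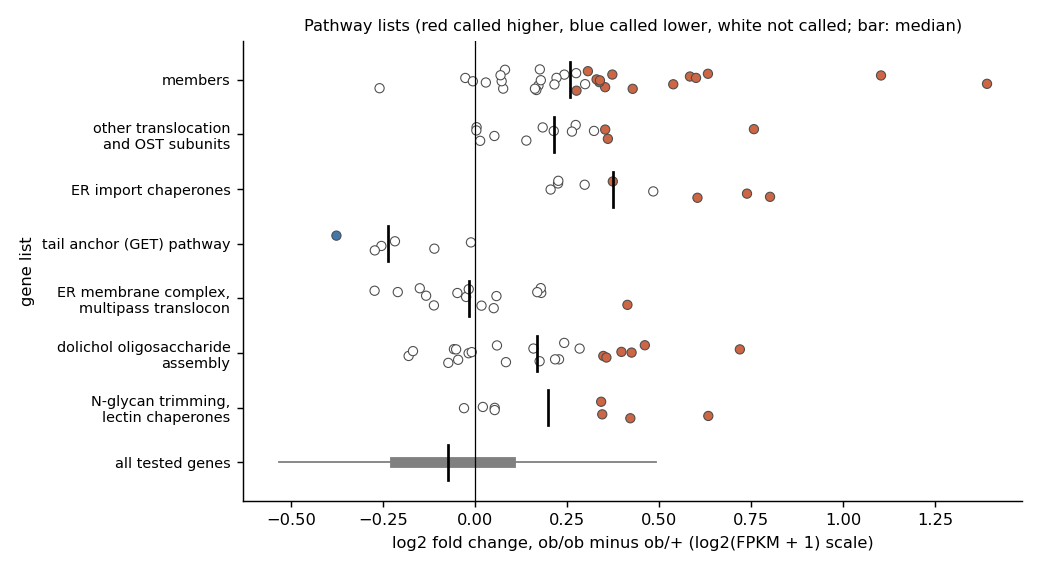
Log2 fold change of the tested genes of each list (red called higher, blue called lower, white not called, bar the median). The last row gives all tested genes, with the thick line from the lower to the upper quartile and the thin line from the 5th to the 95th percentile. The import chaperones all lie to the right of the median of all tested genes (-0.07), and of the 32 members Sec61a2 (-0.26) lies furthest to its left.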

How the data were processed

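Islets were freed with collagenase, purified on a density gradient and picked by hand, per the labels' protocols. The values deposited by the authors were taken as FPKM. The unit was inferred from their 2 decimals and unequal library sums, since no label or header names it. The submitters' processing notes list Trimmomatic 0.36, DESeq2 1.20.0, mm10 and GRCm38 but give them no role. Neither aligner nor quantifier is given in the sources used here. Depth is unknown, so no counting interval is given. Summed FPKM lay between 820968 and 1004230 per library, and 11363 to 11883 genes reached 1 FPKM.

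A gene was tested if 4 or more libraries reached 1 FPKM. The test was limma 3.58.1 (R 4.3.3, statmod 1.5.0) on log2 of FPKM plus 1, two-sided, with moderated variances (trend and robust options) and Benjamini-Hochberg adjustment over all tested genes at a threshold of 0.05. This scale understates the fold changes of low genes. The code was tested on simulated data. The members, gene lists and motifs were chosen with earlier results of these data known. Named genes are all 32 members and up to 4 genes of each other list by smallest p. A gene that this rule takes is not reported here by name and stays in the counts. Srp54b, Srp54c, Magt1, H13, Hspa5, Canx, Calr and the marker genes were added after their values were seen. Positions and lengths (longest protein-coding transcript per gene, found for 96.9% of tested genes) are from GENCODE M21 (GRCm38). Near-identical copies were sought with blastn 2.17.0 at 95% identity over at least 300 bases. Alternatives covered the filter, the pseudocount, the scaling, a replicate block, an acinar covariate, the moderation options and leaving out libraries.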

Additional observations from a re-analysis of the deposited data

Results flagged for a closer look

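Among 64 groups of 4 values (32 genes in each genotype) 4 held a library far from the other 3, where chance gives about 1 in 20. Srp14 in ob/ob 4 was at 77.6 FPKM, with the others between 68.8 and 69.7. Srpr in ob/ob 2 was at 192.5 FPKM, with the others between 183 and 184. Ssr1 in ob/ob 3 was at 22.1 FPKM, with the others at 25.3 to 25.4. Spcs3 in ob/ob 4 was at 98.9 FPKM, with the others between 84.2 and 85.9. All 4 are genes that did not pass the test, and in each the other 3 ob/ob libraries lay within a narrow span.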

How the results depend on the processing

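The choice that moved most was dropping acinar genes from the library total, which left 6 of the 32 genes higher and 8 lower, and 474 of all tested genes higher and 7133 lower. This scaling also made the remaining totals of the libraries equal, which those of the deposited values are not. The percentage of calls that were higher was 43.7 with the deposited scaling, 6.23 with this one, 67.3 without the 10 most abundant genes, 53.2 with median centring and 47.3 with upper-quartile scaling. Of the 73 pathway genes 50 were above 0 with the deposited scaling and 21 without acinar genes. Among the 32 genes and the up to 4 of each other list followed through the alternatives, the log2 fold changes that turned negative without acinar genes were those of Srp14 (-0.129), Srp19 (-0.0157), Srp68 (-0.224), Srp72 (-0.228), Srpr (-0.126), Sec61a1 (-0.0601), Sec63 (-0.0736), Ssr1 (-0.212), Ssr2 (-0.0889), Spcs2 (-0.028), Spcs3 (-0.127), Stt3a (-0.136), Stt3b (-0.224), Ost4 (-0.2745), Tusc3 (-0.139), Srp54c (-0.0287) and Emc3 (-0.108). Of these only Spcs2 was called with the deposited scaling. With the acinar share as a covariate 8 of the 32 were higher and 1 lower, beside 5.56% higher and 18.7% (2199) lower over all tested genes. In that fit Srp68 (-0.0693), Srp72 (-0.0518), Ssr1 (-0.05), Stt3a (-0.0233), Stt3b (-0.0744) and Ost4 (-0.0628) turned negative. Without both ob/+ 4 and ob/ob 1, which had the highest acinar share of their genotypes, 1 of the 32 (Sec61a2) was lower, 2988 of all tested genes were lower, and Srp68 (-0.0341), Ssr1 (-0.0012) and Stt3b (-0.033) turned negative. Srp54a and Sec62 turned positive with median centring (0.044 and 0.0645), upper-quartile scaling (0.0239 and 0.0465) and without the 10 most abundant genes (0.0872 and 0.113). Of all tested genes median centring called 1823 and upper-quartile scaling 1640 higher, a filter of 5 FPKM called 803 lower, and leaving out the 10 most abundant genes 621 lower. The cause of these shifts was not tested.

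Leaving out 1 library at a time gave 9 (without ob/+ 3) to 17 (without ob/+ 2) of the 32 higher, beside 6.93% and 8.39% of all tested genes in those fits. It gave 0 to 1 of the 32 lower, and 635 (5.49%, without ob/+ 1) to 3728 (32.1%, without ob/+ 4) of all tested genes lower. Some genes near 0 changed sign: Srp54a had a log2 fold change of -0.0978 to 0.0272, Sec62 of -0.105 to 0.063, Srp68 of -0.0093 to 0.129, Srp72 of -0.0026 to 0.1185, Stt3b of -0.0214 to 0.106 and Ost4 of -0.0301 to 0.0838. The difference in insulin share lay between 9.568 and 13.69 percentage points, with exact permutation p = 0.0571 without ob/ob 2, ob/ob 3 or ob/ob 4. With the replicate number as a block 16 of the 32 were higher, beside 9.12% of all tested genes, with Srp19 (limma adjusted p = 0.0427) and Sec11a (0.0264) added. The numbers are not known to pair libraries: same-numbered libraries deviated from their group means with correlations of -0.22, 0.21, 0.17 and 0.12. The alternatives for single pathway genes were chosen after the data were seen.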

Other observations

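Markers of other cells of the preparation were read beside the ER genes. Of the 10 beta cell markers, all above 0 in every library, 2 were called higher (Ins2 and Iapp) and 4 lower (Mafa, Slc2a2, Ucn3 and Slc30a8). The median log2 fold change of the 10 was -0.39, with 3 of them positive. Their summed share of FPKM, mostly Ins1 and Ins2, was 61.9% to 70.7% in ob/ob and 45.1% to 58.3% in ob/+. Alpha cell markers summed to 0.947% to 1.26% in ob/ob and 2.95% to 3.70% in ob/+, with 5 of 7 lower and 2 higher. Delta and PP cell markers summed to 0.395% to 0.626% and 1.43% to 2.01%, with 5 of 5 lower. Plasma cells also hold much ER machinery. Of 8 plasma and B cell markers 6 had values, and Igkc and Ighm had none. The 6 summed to 2.71 to 64.5 FPKM in ob/ob and 8.53 to 20.9 in ob/+. Of 3 tested none passed the test, and 2 had a positive fold change. Jchain was at 0.29, 1.73, 21.6 and 13.1 FPKM in ob/ob 1 to 4, and at 2.12, 0.06, 1.07 and 0.19 in ob/+ 1 to 4 (limma adjusted p = 0.298). The part of these cell types in the changes of the ER genes was not tested.

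Bhlha15 (Mist1), a factor of secretory cells that stands on the acinar list, was at 26.1 ± 4.97 FPKM in ob/ob against 21.2 ± 3.84 FPKM in ob/+ (mean ± SD, n = 4 each, limma adjusted p = 0.160). The acinar enzyme Cela1 was at 1550 ± 758 against 4676 ± 2516 FPKM (limma adjusted p = 0.0822), and neither passed the test. Bhlha15 and Cela1 were named after their values were seen. Of the 33 acinar genes 4 had a positive log2 fold change, Bhlha15 among them, and the median of the 33 was -0.84.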
